A study of Homo sapiens with 34 samples.

Results

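Potassium channel genes, all protein-coding genes on chromosomes 1 to 22 and X whose symbol begins with KCN, were examined in KELLY neuroblastoma cells. The GENCODE annotation of the human genome (build hg38) held 96 such genes among 19970 protein-coding genes. KELLY, a cell line grown from a human neuroblastoma with MYCN amplification, carried here a Doxycycline-inducible short hairpin RNA (shRNA) against RUNX1T1, a transcriptional co-repressor. All samples of both groups carried the hairpin and came from this 1 cell line. Cells received DMSO, the solvent, or Doxycycline for 72 h. Chromatin immunoprecipitation followed by sequencing (ChIP-seq) gave 30 peak lists, 3 per treatment for each of 5 histone marks, and the 4 inputs entered only through the peak calls. The lists held 23801 to 157087 peaks. Peaks had been called at a depth of 71.9 to 81.1 M reads in DMSO and 57.0 to 63.4 M reads in Doxycycline, so that effects of the depth of calling and of treatment cannot be told apart. The labels do not say that the 3 libraries of a group came from separate cultures, so their spread may be technical. In each treatment replicates 1 and 3 were called against an input of the same read number, 81.5 M in DMSO and 63.4 M in Doxycycline. These lists thus appear to share a control, and the 3 lists of a group are not fully independent.

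Potassium channels let potassium ions leave or enter the cell and set the resting potential, the shape of the action potential and the firing pattern of neurons. Most voltage-gated members open on depolarization, calcium- and sodium-activated members open when those ions enter the cell, inward rectifiers and two-pore domain channels act near the resting potential, and auxiliary subunits change the gating or surface level of the pore-forming ones. Sympathetic neurons, the lineage from which neuroblastoma arises, are known for the M-current, a slow current of KCNQ channels that restrains firing. Of the marks, H3K4me3 marks promoters, H3K27ac active promoters and enhancers, H3K4me1 and H3K4me2 enhancers and promoter flanks, and H3K27me3 is laid down by the Polycomb complex at repressed genes. A promoter with both H3K4me3 and H3K27me3 is called bivalent, a state well known at developmental genes.

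A mark was called at a gene when all 3 libraries of a treatment had a peak within 1 kb of any annotated start site. The windows of a gene with many start sites can be long, 39.4 kb in all for the 57 of KCNMA1. The marks of a bivalent gene therefore need not lie at the same start site. A promoter with H3K4me3 and no such H3K27me3 call was termed active, one with both bivalent, one with H3K27me3 alone Polycomb, and one with neither bare. The terms describe these marks only, since expression was not analysed here. To show how promoters of 3 of the states read, bivalent, Polycomb and bare, 1 sequence of each is given, from 250 bases before to 50 bases after the RefSeq start site, on the strand of the gene and with each CG pair in capitals. RefSeq sequence (GRCh38.p14) was at hand for 72 of the 96 genes. Each state was called over all windows of the gene, not over the printed bases.

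KCNMA1, bivalent, the pore of the large-conductance calcium-activated BK channel, chr10:77637759-77638058, minus strand: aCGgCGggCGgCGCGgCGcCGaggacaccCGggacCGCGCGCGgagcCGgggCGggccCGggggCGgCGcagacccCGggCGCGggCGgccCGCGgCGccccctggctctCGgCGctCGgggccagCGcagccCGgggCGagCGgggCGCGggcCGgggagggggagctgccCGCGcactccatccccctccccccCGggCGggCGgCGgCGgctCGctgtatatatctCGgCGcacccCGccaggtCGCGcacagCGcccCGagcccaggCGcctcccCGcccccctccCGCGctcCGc
KCNA7, Polycomb, a voltage-gated Shaker channel of muscle, chr19:49072650-49072949, minus strand: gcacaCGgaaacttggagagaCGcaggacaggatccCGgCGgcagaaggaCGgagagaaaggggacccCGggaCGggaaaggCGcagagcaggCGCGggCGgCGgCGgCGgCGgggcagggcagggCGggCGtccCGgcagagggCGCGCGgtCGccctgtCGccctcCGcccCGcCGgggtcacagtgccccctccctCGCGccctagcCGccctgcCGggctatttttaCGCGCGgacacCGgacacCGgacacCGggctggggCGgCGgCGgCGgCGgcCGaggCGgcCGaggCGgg
KCNJ1, bare, the ROMK channel of the kidney tubule, chr11:128867247-128867546, minus strand: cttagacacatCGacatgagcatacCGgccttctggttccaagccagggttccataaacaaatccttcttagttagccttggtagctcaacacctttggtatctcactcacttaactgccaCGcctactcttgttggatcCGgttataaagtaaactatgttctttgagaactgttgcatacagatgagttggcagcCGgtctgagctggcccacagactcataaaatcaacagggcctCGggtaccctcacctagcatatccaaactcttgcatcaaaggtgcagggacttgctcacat

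The windows of KCNMA1 and KCNA7 held 54 and 45 CG pairs, and that of KCNJ1 held 6. KCNA7 is not typical of its state: it had H3K4me3 in 2 of 3 libraries of each treatment, 1 short of a bivalent call, and its CpG observed/expected ratio within 500 bp of the start site, 1.10, was the highest of the 96 genes. Over all 96 genes, the CpG observed/expected ratio within 500 bp of the canonical start site had a median of 0.761 at active, 0.752 at bivalent, 0.582 at Polycomb and 0.252 at bare promoters. The medians of all coding genes in these states were 0.785, 0.770, 0.319 and 0.231. A ratio above 0.6 was found at 29 of 37 bivalent potassium channel genes (78.4%) and at 23 of 33 active ones (69.7%), beside 81.2% and 86.9% of all bivalent and active genes. The active members of lowest ratio were KCNK7 (0.154), a two-pore domain gene, and KCNMB3 (0.185), a beta subunit of the BK channel. KCNK7 shares a promoter window with EHBP1L1, and KCNMB3 has 7 annotated start sites. States were called over all start sites and ratios taken at the canonical one, so they need not describe the same promoter. Bare members lay at 0.0659 (KCNJ13) to 0.663. The ranges of the 4 states overlapped in the plot of CpG ratio by state.

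**Figure D1:**
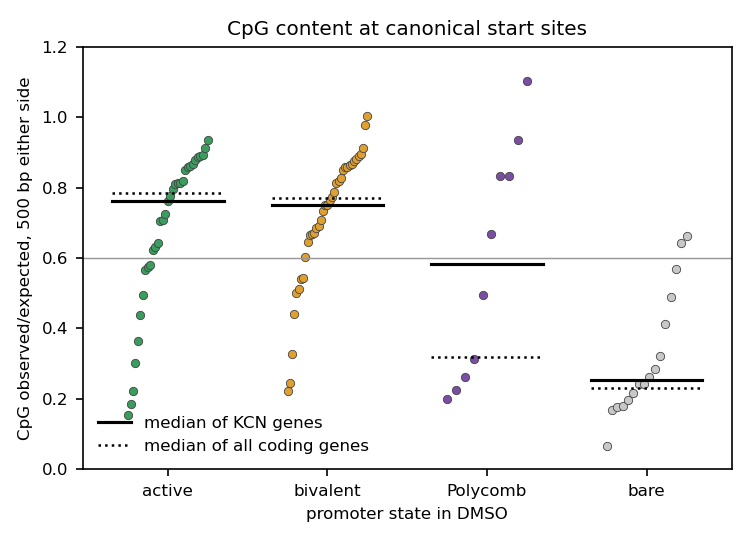
Points show the CpG observed/expected ratio (vertical axis) within 500 bp of the canonical start site of each of the 96 potassium channel genes, by promoter state in DMSO (horizontal axis). Solid lines are medians of these genes, dotted lines medians of all coding genes and the thin line marks 0.6. Bare promoters sit lowest, with a median of 0.252.

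In DMSO, 33 potassium channel genes were active (34.4%), 37 bivalent (38.5%), 10 Polycomb (10.4%) and 16 bare (16.7%). Over all coding genes the shares were 61.5%, 11.1%, 9.77% and 17.6%, so the share of bivalent promoters was higher among potassium channel genes and that of active ones lower, while the shares of the other states were near those of all genes. Values of the other families of voltage-gated ion channel, with no test, were as follows. Of 14 sodium channel genes (SCN), 10 were active and 2 bivalent. Of 26 calcium channel genes (CACN), 11 were active, 8 bivalent, 4 Polycomb and 3 bare. H3K27ac was called at 28 of the 33 active potassium channel promoters (84.8%, beside 96.6% of all active genes) and at 16 of the 37 bivalent ones (43.2%, beside 37.1%). The number of potassium channel genes with a promoter peak in a single library ranged from 70 to 73 for H3K4me3, from 41 to 52 for H3K27ac and from 49 to 55 for H3K27me3. These counts are 72.9% to 76%, 42.7% to 54.2% and 51% to 57.3% of the members. Over all coding genes the shares were 72.4% to 74%, 66.1% to 69.6% and 22.8% to 31.1%. With only peaks of q 0.001 or less, 22 bivalent promoters were left in DMSO, and with peaks of q 1e-10 or less 0, with 68 active. At q 1e-10 or less no Polycomb promoter was left either. Shares over all coding genes are not given at these cutoffs, so whether the higher bivalent share holds there was not tested.

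**Figure D2:**
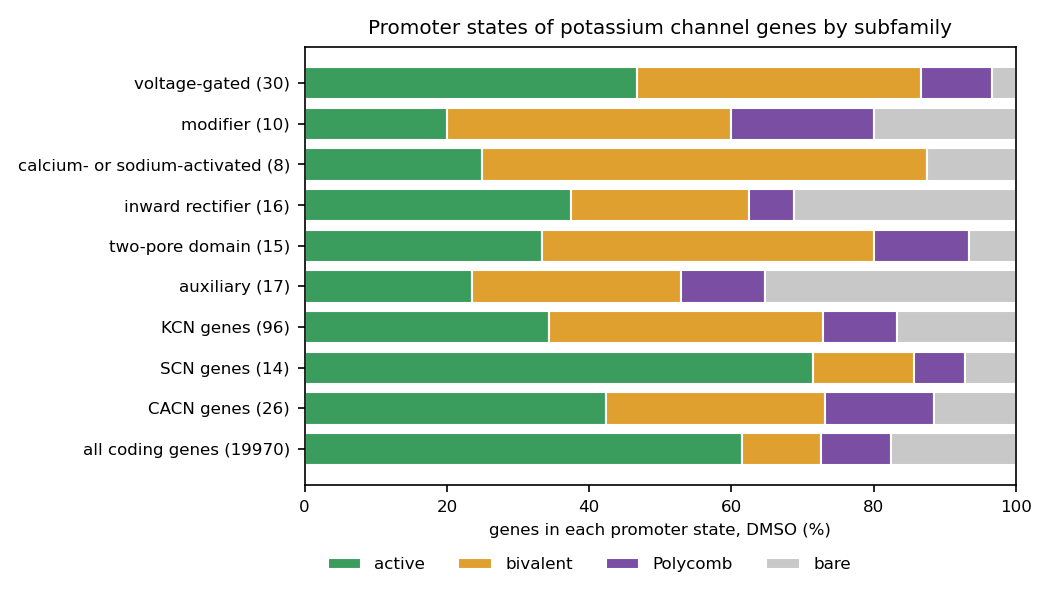
Bars show the percent of genes in each promoter state in DMSO (horizontal axis) for the 6 potassium channel subfamilies, all 96 KCN genes, the SCN and CACN genes and all 19970 coding genes, with the number of genes in parentheses. The bivalent share was 38.5% over the KCN genes and 11.1% over all coding genes.

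The 30 voltage-gated pore-forming genes held 14 active, 12 bivalent, 3 Polycomb and 1 bare promoter in DMSO. All 14 active ones, among them KCNB2, KCNC1, KCNC4, KCND1, KCNQ5 and 6 genes of the KCNH family (KCNH1, KCNH2, the pore of the cardiac and neuronal hERG channel, KCNH3, KCNH4, KCNH6 and KCNH7), had H3K27ac in 3 of 3 DMSO and 3 of 3 Doxycycline libraries. The Shaker genes KCNA1 to KCNA7 and KCNA10 held no active promoter. KCNA2, KCNA3, KCNA4 and KCNA6 were bivalent, KCNA1, KCNA5 and KCNA7 Polycomb and KCNA10 bare. In the KCNQ family, KCNQ1, which forms the slow cardiac repolarizing current, and KCNQ3, an M-current channel, were bivalent. KCNQ1 also had H3K27ac in all 6 libraries and KCNQ3 in none. Each H3K4me3 peak at KCNQ3 was weak, with fold enrichments of 6.98, 7.70 and 3.94 in DMSO and 10.2, 10.3 and 8.51 in Doxycycline. At KCNAB1, which has 12 annotated start sites, no single one had both marks in 3 of 3 libraries of either treatment.

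The 10 modifier genes, whose subunits form no channel alone but alter KCNB channels, held 2 active promoters (KCNG1 and KCNG3), 4 bivalent (KCNF1, KCNS2, KCNS3 and KCNV1), 2 Polycomb (KCNG2 and KCNS1) and 2 bare (KCNG4 and KCNV2). Only KCNG1 and KCNG3 among them had an H3K27ac peak in the promoter window in any library. In gene bodies KCNG4 and KCNS3 had H3K27ac in all 6 libraries, with means of 6.75 and 6.24 kb in DMSO. In DMSO the 8 calcium- or sodium-activated genes were mostly bivalent, at 5 of 8 (KCNMA1, KCNN1, KCNN2, KCNN3 and KCNT1), and H3K27ac was called at 4 of these 5. KCNT1, which encodes the sodium-activated Slack channel, was the exception, with H3K27ac in 0 of 6 libraries. In Doxycycline KCNN2 had H3K27ac in 1 of 3 libraries and KCNN3 in 2 of 3. Their mean H3K27ac fold enrichments in DMSO were low, at 2.31 and 2.15. At KCNMA1 the highest H3K4me3 peak in its windows had fold enrichments of 39.1, 56.2 and 29.0 in DMSO. The highest H3K27me3 peak had 2.39, 3.03 and 2.77, and it need not lie at the same start site.

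The 16 inward rectifier genes held 6 active (KCNJ3, KCNJ5, KCNJ6, KCNJ8, KCNJ11 and KCNJ12), 4 bivalent (KCNJ2, KCNJ4, KCNJ9 and KCNJ10), 1 Polycomb (KCNJ15) and 5 bare promoters. KCNJ3, KCNJ5 and KCNJ6 encode G protein-gated channels, and KCNJ8 and KCNJ11 the pores of ATP-sensitive channels. Their partner subunits differed: ABCC8, the sulfonylurea receptor found with KCNJ11, was active, and ABCC9 was Polycomb. ABCC9 had H3K4me3 in 2 of 3 libraries of each treatment, just short of a bivalent call. The bare inward rectifiers were KCNJ1, KCNJ13, KCNJ14, KCNJ16 and KCNJ18, of kidney, eye and muscle among other tissues. The 15 two-pore domain genes held 5 active (KCNK3, KCNK5, KCNK7, KCNK10 and KCNK15), 7 bivalent, 2 Polycomb and 1 bare promoter. In DMSO H3K27ac was called at all 5 active ones and at KCNK9 alone among the 7 bivalent ones. KCNK3, the TASK-1 channel, is known in adrenal and sympathetic cells.

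The 17 auxiliary genes held 4 active, 5 bivalent, 2 Polycomb and 6 bare promoters. Of the KChIP genes, whose products bind KCND channels, KCNIP2 was active and KCNIP1, KCNIP3 and KCNIP4 were bivalent with H3K27ac. None of the KCNE genes, small single-pass subunits, had H3K4me3 in 3 libraries: KCNE1 and KCNE2 were Polycomb and KCNE3, KCNE4 and KCNE5 bare. KCNMB2 and KCNMB3 were active with no H3K27ac call. Of channel partners with other symbols, 4 of 13 were active (ABCC8, LRRC55, AMIGO1 and HCN3), 6 bivalent (among them DPP6, DPP10, LRRC26, HCN2 and HCN4), 2 Polycomb and 1 bare. 4 potassium channel genes (4.17%) had no peak of any mark near a start site in any of the 30 lists, namely KCNJ1, KCNRG, KCNU1 and KCNV2, beside 5.60% of all coding genes.

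**Figure D3:**
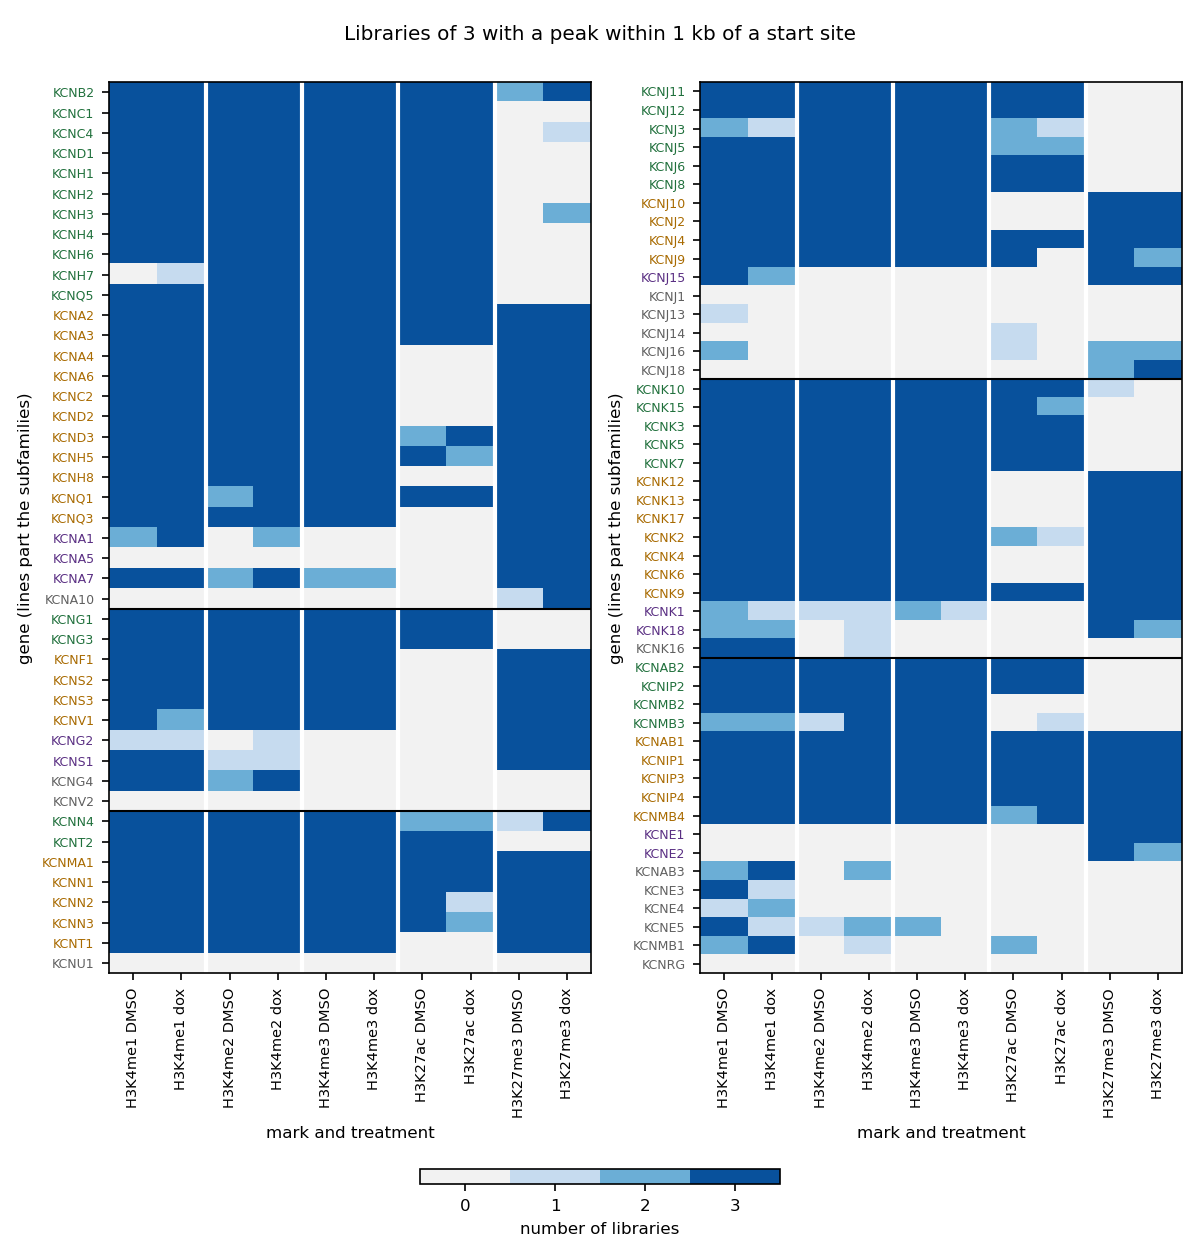
Each row is 1 of 92 of the 96 potassium channel genes and each column a mark and treatment; the color gives how many of 3 libraries had a peak within 1 kb of a start site. Gene names are colored by state in DMSO (green active, orange bivalent, purple Polycomb, gray bare), and black lines part the subfamilies in the order of the bar chart, from voltage-gated to calcium- or sodium-activated on the left and from inward rectifier to auxiliary on the right. The columns of DMSO and Doxycycline look alike in nearly every row.

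Neighboring potassium channel genes could differ in state. Of 9 groups of members within 100 kb of each other, holding 20 genes, 2 were uniform in DMSO, KCNE1 with KCNE2 (both Polycomb) and KCNJ9 with KCNJ10 on chromosome 1 (both bivalent). KCNJ5 was active beside the bare KCNJ1, KCNJ6 active beside the Polycomb KCNJ15, and KCNK5 active beside the bivalent KCNK17 and the bare KCNK16.

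The strength of the marks differed with state. Among potassium channel genes in DMSO, the median over genes of the mean H3K4me3 fold enrichment was 26.0 at active promoters and 16.4 at bivalent ones, beside 33.1 and 17.4 over all coding genes. For H3K27ac the medians were 5.09 at the 28 active and 3.31 at the 16 bivalent promoters with a call, beside 6.40 and 4.42 over all coding genes. H3K27me3 had a median fold of 3.39 at bivalent and 3.47 at Polycomb promoters, near the 3.4 and 3.28 of all coding genes. In Doxycycline the H3K27ac medians were 6.16 and 4.18 for potassium channel genes and 8.15 and 5.39 for all coding genes. Fold enrichment depends on the depth and input of each library, so these levels were not compared between treatments.

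The promoters were then compared between the treatments. No sample here had Doxycycline without the hairpin, so effects of RUNX1T1 knockdown and of Doxycycline itself cannot be told apart. In Doxycycline 32 potassium channel genes were active, 38 bivalent, 10 Polycomb and 16 bare. The state was the same in 89 genes and differed in 7 (7.29%), beside 5% of all coding genes. KCNB2, a delayed rectifier, and KCNN4, the intermediate-conductance calcium-activated channel, were active in DMSO and bivalent in Doxycycline. KCNJ9, a G protein-gated inward rectifier, was bivalent in DMSO and active in Doxycycline. KCNE2 and KCNK18 were Polycomb in DMSO and bare in Doxycycline, and KCNA10 and KCNJ18 the reverse. In all 7 the H3K4me3 call was the same in both treatments, and the state turned on H3K27me3 peaks missing from 1 or 2 libraries.

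The bases of the promoter window covered by H3K27me3 peaks show this. KCNN4 had 0.892, 0 and 0 kb in DMSO and 2.11, 2.64 and 0.478 kb in Doxycycline. KCNA10 had 0.626, 0 and 0 kb in DMSO and 2.00, 0.694 and 0.228 kb in Doxycycline. KCNJ18 had 2.00, 0.219 and 0 kb in DMSO and 2.00, 2.00 and 1.19 kb in Doxycycline. Each Doxycycline range overlapped the DMSO range. KCNB2 had 0.527, 0.291 and 0 kb in DMSO and 0.474, 0.458 and 0.397 kb in Doxycycline. KCNE2 had 1.70, 0.119 and 0.709 kb in DMSO and 1.69, 1.67 and 0 kb in Doxycycline. KCNK18 had 1.49, 1.33 and 0.927 kb in DMSO and 1.44, 2.00 and 0 kb in Doxycycline. At KCNE2, KCNK18 and KCNJ9 the missing peak was in Doxycycline replicate 3 alone. The fragment length estimated by the peak caller ranged from 105 to 112 bp in 3 H3K27me3 libraries (DMSO replicates 2 and 3, Doxycycline replicate 3) and from 256 to 280 bp in the other three. Every library without a peak at these 7 genes was one of the 3 with short fragments, and the part of fragment length in these calls was not tested. Counted from consensus regions touching the window, 3 states differed, and with 2.5 kb either side 4. Shares over all coding genes are not given for these counts.

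**Figure D4:**
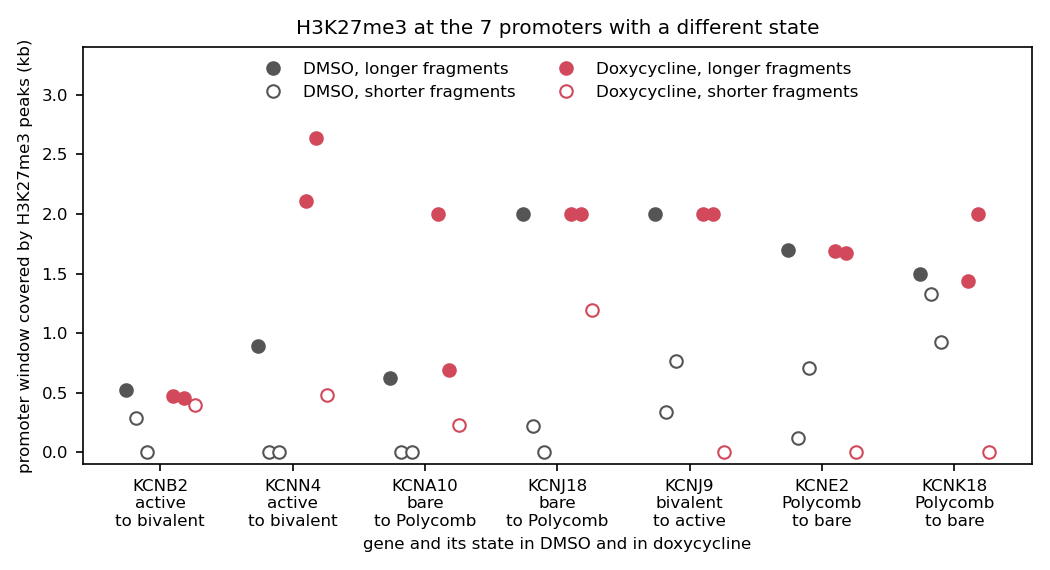
Points show the length of the promoter window covered by H3K27me3 peaks (vertical axis, kb) in each of 6 libraries at the 7 genes with a different state (horizontal axis), DMSO in gray and Doxycycline in red, filled for longer and open for shorter estimated fragments. All points at 0 are open.

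A peak in 3 of 3 libraries of 1 treatment and 0 of 3 of the other was found for 1 potassium channel gene and mark, H3K27ac at KCNJ9, and none was gained in Doxycycline. Over all pairs of coding gene and mark, 0.102% were gained and 0.0971% lost, and for H3K27ac alone 0.22% of genes lost the peak. At KCNJ9 the window was covered for 0.747, 0.970 and 0.570 kb by H3K27ac in DMSO and for 0 kb in each Doxycycline library. These peaks were weak, with fold enrichments of 2.07, 2.25 and 1.91. H3K4me3 remained there, at 14.7, 21.5 and 8.54 in DMSO and 7.51, 13.8 and 4.87 in Doxycycline, which overlapped. KCNJ9 held H3K27me3 in 3 of 3 DMSO and 2 of 3 Doxycycline libraries. The KCNJ9 call ended under stricter lists: 0 peaks were lost with lists of equal length, at q 0.001 or less and at q 1e-10 or less. Without Doxycycline replicate 1, DMSO replicate 2 or DMSO replicate 3 the number of lost peaks was 4, 2 or 3. Without DMSO replicate 1 or Doxycycline replicate 2 there were 3 gained. A group of 2 libraries meets such a call more easily than 1 of 3, and shares over all coding genes are not given for these counts.

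The covered length of the promoter window separated the treatments at more genes. For H3K4me2 it was higher in every Doxycycline library than in every DMSO library at 4 of 81 genes (4.94%), KCNA2, KCNA3, KCNJ4 and KCNT1. It was lower at 0. The shares set beside are of the coding genes tested for each mark, for H3K4me2 1.77% higher and 0.549% lower. For H3K4me3 it was higher at 5 of 73 (6.85%, beside 2.94%) and lower at 1, KCNAB1 (1.37%, beside 6.15%). For H3K27ac it was higher at 5 of 54 (9.26%, beside 4.92%) and lower at 3 (5.56%, beside 6.47%), and for H3K4me1 higher at 7 of 86 (8.14%, beside 3.97%) and lower at 5 (5.81%, beside 5.89%). KCNA2, a Shaker channel of axons, was among the higher genes in 3 marks. Its windows held 0.715, 0.830 and 0.575 kb of H3K27ac in DMSO and 1.49, 1.21 and 0.995 kb in Doxycycline. They held 1.96, 2.20 and 1.90 kb of H3K4me3 in DMSO and 2.57, 2.61 and 2.35 kb in Doxycycline. Its H3K27me3 covered 4.36, 3.04 and 4.30 kb in DMSO and 4.35, 4.34 and 4.14 kb in Doxycycline, with no separation. KCNT1 was higher in both H3K4me1 and H3K4me2, with 1.79, 1.23 and 0.738 kb of H3K4me2 in DMSO and 5.34, 2.94 and 2.26 kb in Doxycycline. KCNAB1 was lower in both H3K4me3 and H3K27ac, with 3.26, 1.99 and 2.12 kb of H3K27ac in DMSO and 1.2, 0.887 and 1.06 kb in Doxycycline. These are counts without a p-value, since 3 libraries against 3 allow no exact permutation p below 0.1.

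H3K27me3 spread beyond the promoter at several members. The 6 genes with the most H3K27me3 over promoter windows and gene body in DMSO were KCNT1 (mean 91.1 kb), KCNQ3 (86 kb), KCND2 (65.7 kb), KCNG2 (64.7 kb), KCNQ1 (45.5 kb) and KCNJ10 (36.8 kb). At KCNT1 the mark covered 95.8% to 100% of the gene body, the part beyond 1 kb of coding start sites, in each of the 6 libraries. At KCNQ3 it covered 177, 32.9 and 36.0 kb of the body in DMSO and 232, 194 and 38.2 kb in Doxycycline. At KCND2, an A-type channel, it covered 126, 13.1 and 52.7 kb in DMSO and 123, 119 and 37.6 kb in Doxycycline. In each of the 6 genes the 3 libraries with longer fragments were above the 3 with shorter ones, and the treatments overlapped. Gene body coverage by H3K27me3 separated the treatments at 0 of 64 potassium channel genes in either direction. Of the coding genes tested, 0.861% were higher and 0.0726% lower in Doxycycline. The median log2 difference was 0.44 over the 64 genes and 0.22 over all coding genes tested. The longer fragments were those of DMSO replicate 1 (256 bp) and Doxycycline replicates 1 (265 bp) and 2 (280 bp). Coverage that follows fragment length cannot separate the treatments, so the 0 does not show unchanged coverage. The part of fragment length in the median difference was not tested.

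H3K27ac in gene bodies was spread over a few long genes. The 6 with most in DMSO were KCNMA1 (120 ± 16.4 kb, mean ± SD, n = 3), KCNH1 (76.4 ± 13.7 kb), KCNIP4 (65.9 ± 7.94 kb), KCNAB1 (48.1 ± 8.30 kb), KCNN3 (39.2 ± 7.26 kb) and KCNAB2 (35.3 ± 8.97 kb). Of 58 members with such a peak in any library, 10 (17.2%) had less in every Doxycycline library than in every DMSO library. The share was 11.2% of the 12166 coding genes with such a peak. In the other direction, 3 members (5.17%, beside 5.01%) had more. At KCNAB1, a cytoplasmic beta subunit of Shaker channels, peaks covered 51.4, 38.7 and 54.3 kb in DMSO and 7.65, 7.78 and 13.9 kb in Doxycycline. The groups were far apart, and the difference of mean log2 (kb + 0.1) was -2.33. At KCNH1, the voltage-gated EAG1 channel, they covered 90.7, 75.2 and 63.3 kb in DMSO and 49.98, 39.8 and 20.6 kb in Doxycycline (log2 difference -1.13). At KCNMA1 they covered 139, 109 and 113 kb in DMSO and 89.2, 91.8 and 72.2 kb in Doxycycline (-0.51), and at KCNQ5, an M-current channel, 25.7, 14.9 and 27.5 kb in DMSO and 12.8, 12.1 and 11.1 kb in Doxycycline (-0.87). In each alternative run these 4 stayed lower in Doxycycline, with values of -2.75 to -2.13 for KCNAB1 and -1.40 to -0.76 for KCNH1.

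The other members with less H3K27ac were short or had little of it: KCND1, KCNG3, KCNJ15, KCNK13, KCNK15 and KCNV2. KCNK15 had 3.10, 3.62 and 3.66 kb in DMSO and 1.25, 1.00 and 0.911 kb in Doxycycline, in a body that overlaps RIMS4. KCNG3 and KCNV2 had no such peak in Doxycycline, from means of 2.30 and 1.05 kb in DMSO, and KCNV2 overlaps PUM3. Those with more were KCNK10, KCNB2 and KCNK12. KCNK10, the TREK-2 channel, had 16.7, 13.4 and 12.2 kb in DMSO and 23.9, 27.2 and 23.3 kb in Doxycycline (log2 difference 0.82). KCNB2 had 8.24, 6.26 and 3.83 kb in DMSO and 14.1, 13.6 and 9.15 kb in Doxycycline (1.04). Ranked members that did not separate were KCNIP4 (60.3 ± 3.77 kb in Doxycycline), KCNN3 (35.1 ± 10.4 kb) and KCNAB2 (45.6 ± 15.6 kb). The exact two-sided permutation p was 0.1, the smallest possible, for each separated member. It was 0.616 after Benjamini-Hochberg adjustment over all coding genes tested, so no member passed the test. The median log2 difference was 0.05 over the 58 potassium channel genes and -0.12 over all coding genes tested. Without DMSO replicate 1, Doxycycline replicate 2 or Doxycycline replicate 3, 8, 5 or 9 members had more H3K27ac, and at q 0.001 or less 6 had less. Groups of 2 libraries separate more easily than groups of 3, and shares over all coding genes are not given for these counts. In all, 26 members overlap another coding gene, whose peaks cannot be told apart from theirs.

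**Figure D5:**
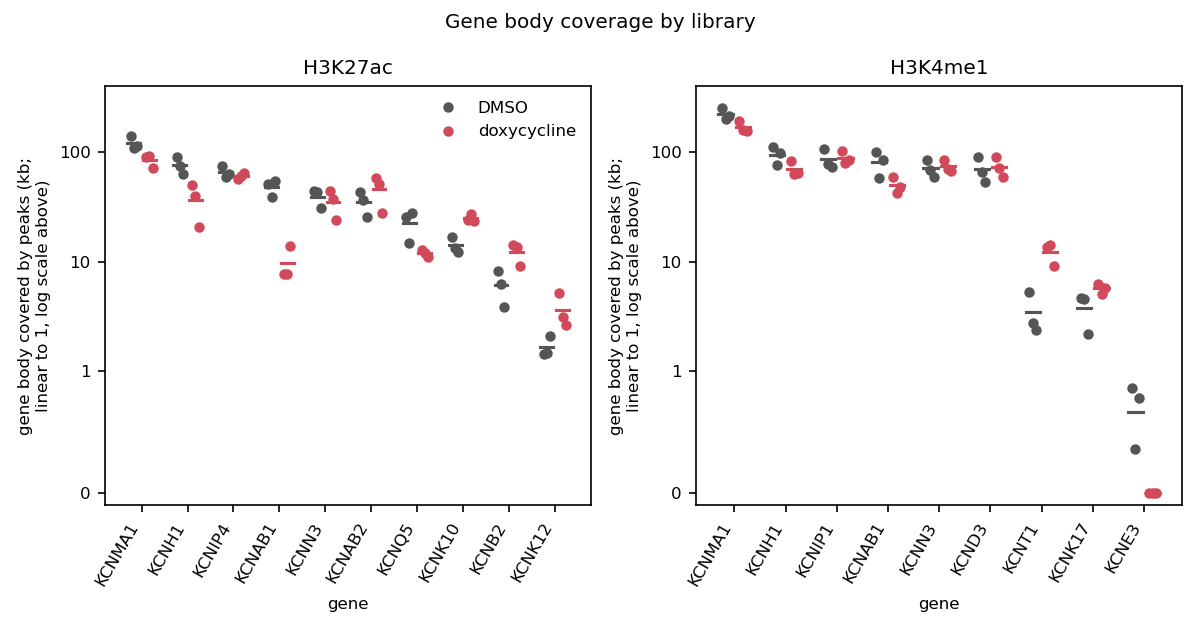
Points show the length of gene body covered by H3K27ac peaks (left) and H3K4me1 peaks (right) in each library, in kb on an axis that is linear to 1 and logarithmic above, for 10 genes on the left and 9 on the right; short lines are means of 3 libraries, DMSO in gray and Doxycycline in red. On the left the means of KCNAB1 are 48.1 and 9.77 kb and those of KCNH1 76.4 and 36.8 kb, and the H3K4me1 of KCNE3 is at 0 in all 3 Doxycycline libraries.

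H3K4me1 also marks enhancers without H3K27ac. The most covered bodies in DMSO were those of KCNMA1 (221 ± 27 kb), KCNH1 (94.8 ± 17.7 kb), KCNIP1 (86 ± 17.3 kb), KCNAB1 (80.9 ± 21.8 kb), KCNN3 (70.8 ± 12.3 kb) and KCND3 (70.4 ± 19.0 kb). Of 82 members tested, 6 (7.32%, beside 3.42% of the 15866 coding genes tested) had more H3K4me1 in every Doxycycline library. Among them were KCNA6, KCNK12, KCNK16, KCNK17 and KCNT1. Another 6 (7.32%, beside 7.9%) had less H3K4me1, KCND1, KCNE3, KCNH4, KCNIP2, KCNMA1 and KCNMB3. At KCNT1 it covered 5.31, 2.79 and 2.37 kb in DMSO and 13.6, 14.2 and 9.12 kb in Doxycycline (log2 difference 1.85), within a body covered almost whole by H3K27me3. KCNK16 and KCNK17, neighbors on chromosome 6, had means of 1.34 and 3.81 kb in DMSO and 2.1 and 5.71 kb in Doxycycline. At KCNMA1 it covered 251, 198 and 213 kb in DMSO and 193, 158 and 156 kb in Doxycycline (-0.39), on the same side as its H3K27ac. KCNAB1, with 101, 57.6 and 84.4 kb in DMSO and 59.7, 42.3 and 48.1 kb in Doxycycline, overlapped between treatments.

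For gene body H3K4me1 the same-numbered libraries deviated together in all 3 pairs, so paired counts are given too. With the replicate block, 18 members (22.0% of the 82) were higher and 20 (24.4%) lower in Doxycycline in all 3 pairs. Over the coding genes tested the shares were 10.5% and 26.3%. The exact permutation p of each separated member was 0.1, and 0.884 adjusted over the coding genes tested by Benjamini-Hochberg, so none passed the test. With lists of equal length 10 members had more and 7 less, and at q 0.001 or less 5 had more and 2 less. Without DMSO replicate 1 or Doxycycline replicate 3, 12 or 11 members had more. Without DMSO replicate 2, DMSO replicate 3 or Doxycycline replicate 1, 13, 11 or 16 had less. Here too groups of 2 separate more easily. Shares over all coding genes are not given for the counts with altered lists or a library left out. At q 0.001 or less KCND1 turned to 0.85, from -0.85.

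Distal elements were taken as H3K4me1 regions of all 3 libraries in gene bodies, without H3K4me3 and beyond 1 kb of coding start sites. Those with H3K27ac and no H3K27me3 were termed active, those with neither primed and those with H3K27me3 alone poised. In DMSO the potassium channel gene bodies (13.2 Mb) held 152 active, 223 primed and 7 poised elements, and in Doxycycline 135, 229 and 6. The order of the treatments turned with the peak lists: lists of equal length gave 116 active elements for DMSO and 127 for Doxycycline, and peaks of q 0.001 or less gave 66 and 73. The density of active elements was 11.5 per Mb in DMSO, beside 7.54 per Mb over all coding gene bodies, and 10.2 per Mb in Doxycycline, beside 6.39. Primed elements were denser too, at 16.8 per Mb in DMSO, beside 11.5, and 17.3 in Doxycycline, beside 10.3. The active share of elements was thus near that of all gene bodies, 39.8% beside 38.5% in DMSO and 36.5% beside 36.8% in Doxycycline. Active elements lay in 34 members in DMSO and 38 in Doxycycline. In DMSO 6 members, among them KCNMA1, KCNH1, KCNAB1, KCND3 and KCNQ5, held 84 of the 152. KCNMA1 had 24 active elements in DMSO and 20 in Doxycycline, KCNH1 16 and 13, KCNAB1 13 and 4, KCNQ5 10 and 4, and KCNK10 4 and 6. Of the 152, 100 (65.8%, beside 62.4% over all genes) overlapped an active element in Doxycycline and 38 (25.0%, beside 25.7%) a primed one. Poised elements of DMSO lay in KCNJ10, KCNJ4 and KCNT1, among others.

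Single regions were then sought that had peaks of all 3 libraries in 1 treatment and of 0 in the other. For H3K27ac, 18 of 186 regions in potassium channel gene bodies were lost in Doxycycline (9.68%, beside 8.67% over all gene bodies) and 5 of 157 gained (3.18%, beside 3.36%). KCNMA1 held 6 of the lost regions and KCNAB1 4. For H3K4me1, 10 of 407 were lost (2.46%, beside 4.17%) and 5 of 389 gained (1.29%, beside 1.09%). For H3K27me3, 3 of 105 were gained (2.86%, beside 2.39%), at KCNQ3, KCNS3 and KCNV1. For H3K4me2, 5 of 128 were lost (3.91%, beside 1.87%), in KCNAB1, KCNH1, KCNIP4 and 2 places in KCNMA1, and 4 of 135 gained (2.96%, beside 0.861%), among them 1 each in KCNA2, KCNMB2 and KCNT1. The fold enrichments of the gained region in KCNA2 were 13.2, 4.26 and 8.03, and of that in KCNT1 8.51, 4.83 and 2.99.

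To show regions found in 1 treatment alone, the 151 bases around the median H3K4me2 summit are shown for 2 gained and 3 lost regions (hg38, plus strand). All 5 lie in introns, and the summits of the 3 libraries lay 64 to 641 bp apart. Capitals mark the E-box hexamers CATCTG and CAGGTG on either strand (CAGATG and CACCTG in reverse), the kind of site that basic helix-loop-helix factors of neural crest cells bind.

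KCNA2, gained, chr1:110524758-110524908: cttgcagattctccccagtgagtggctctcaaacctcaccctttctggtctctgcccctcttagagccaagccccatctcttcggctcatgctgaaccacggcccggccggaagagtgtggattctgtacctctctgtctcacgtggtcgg
KCNT1, gained, chr9:135718638-135718788: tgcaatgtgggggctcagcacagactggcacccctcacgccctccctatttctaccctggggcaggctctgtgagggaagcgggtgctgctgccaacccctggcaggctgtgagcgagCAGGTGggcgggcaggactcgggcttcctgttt
KCNAB1, lost, chr3:156473425-156473575: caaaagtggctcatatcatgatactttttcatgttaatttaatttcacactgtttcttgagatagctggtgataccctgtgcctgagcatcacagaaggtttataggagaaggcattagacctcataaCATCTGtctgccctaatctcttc
KCNH1, lost, chr1:210910381-210910531: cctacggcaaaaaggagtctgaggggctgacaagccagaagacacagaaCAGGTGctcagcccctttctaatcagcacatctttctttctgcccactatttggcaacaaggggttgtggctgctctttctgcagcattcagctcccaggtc
KCNMA1, lost, chr10:77222354-77222504: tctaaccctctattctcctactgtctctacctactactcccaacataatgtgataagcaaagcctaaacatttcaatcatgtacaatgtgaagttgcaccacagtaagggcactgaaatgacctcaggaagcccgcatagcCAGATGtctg

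CATCTG was found in 2 of the 5 lost windows, at KCNAB1 and KCNMA1, and in 0 of the 4 gained ones. CAGGTG was found in 1 lost window, at KCNH1, and 2 gained ones, at KCNT1 and KCNMB2. Over all gene body H3K4me2 windows of this length, CATCTG was present in 13.7% in DMSO and 13.9% in Doxycycline, and CAGGTG in 15.6% and 16.7%. In potassium channel gene bodies the shares were 13.3% and 10.4% for CATCTG and 16.4% and 23.7% for CAGGTG. A match describes these letters and not binding.

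The lineage of the cells was checked against marker promoters. All 10 adrenergic genes examined, among them PHOX2A, HAND2 and TH, were active with H3K27ac in both treatments. Of all coding genes, 61.5% were active in DMSO. Of 8 mesenchymal genes 3 were active and 5 bivalent, and the 3 blood and 2 liver genes held no active promoter. Some marks of these genes still differed between treatments. HAND2 had promoter H3K4me2 peaks in 0 DMSO and 3 Doxycycline libraries, and the liver gene APOA1 had H3K4me1 in 3 and 0. Of the members, 8 share a promoter window with another coding gene (among them KCNAB2, KCNAB3, KCNG3, KCNJ13, KCNK7, KCNQ1 and KCNT1), and the peaks there cannot be assigned to 1 of the genes.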

How the data were processed

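Peak lists from ChIP-seq of KELLY cells were analysed for 5 histone marks, 3 libraries per mark and treatment (34 samples, of which 4 were inputs). Per the file headers and methods, the authors aligned reads to hg38 with Bowtie2, kept a mapping quality of 30 or more and called peaks per library with MACS2 2.1.1.20160309 against input. Headers give broad calls (q 0.05, linked at q 0.1) for H3K4me1, H3K27ac and H3K27me3 and narrow calls at p 1e-05 for H3K4me2 and H3K4me3, whereas the methods state a q threshold throughout. The deposited pileup is a coverage signal. The authors' peak caller gave each peak a −log10 p-value, a −log10 q-value and a fold enrichment, the ratio of ChIP to local input, which depend on depth. No counts per region were used, so presence and covered length of peaks were compared.

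GENCODE release 44 start sites and gene bodies, python 3.11.15, numpy 2.4.6, pandas 2.3.3, scipy 1.17.1 and matplotlib 3.10.9 were used. Overlap of 1 bp counted. Gene body coverage was compared as log2 (kb + 0.1) by the exact two-sided permutation test over 20 assignments. Values were adjusted by Benjamini-Hochberg over all coding genes with such a peak in any library. The functions were tested on simulated data. CpG ratios were read from hg38; all peaks lay inside its chromosomes in 23 of 23 cases. Same-numbered libraries correlated in their deviations from group means in gene body H3K4me1 (0.337, 0.286 and 0.119); for gene body H3K27ac the values were 0.211, 0.099 and 0.285 and for H3K27me3 0.615, -0.0856 and 0.44, not all over 0.1.

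Genes named were those with a different state or separated promoter, the 6 with most gene body H3K27ac, H3K4me1 and H3K27me3, 6 fixed genes (among them KCNA2, KCNQ3, KCNH2, KCNMA1 and KCNQ1) and examples of each state and subfamily. Genes with separated gene body coverage or promoter covered length, and the regions printed, were named after their values were seen. A few members enter all counts but are not reported by name here. Members and lists were chosen with earlier results of these data known. Alternatives were other peak thresholds, promoter widths, start sites, overlaps, list lengths, library sets and a replicate block; start sites of protein-coding transcripts alone were added after seeing the data.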

Additional observations from a re-analysis of the deposited data

How the results depend on the processing

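State counts held within 1.5 times under canonical or protein-coding start sites, both marks at 1 start site, 0.5 kb promoters, peaks in 2 of 3 libraries and leaving out shared windows. At q 0.001 or less there were 22 bivalent promoters in DMSO, 6 Polycomb in DMSO and 5 in Doxycycline, 1 promoter gain and 0 losses, 66 and 73 active, 80 and 90 primed and 1 and 1 poised elements (DMSO and Doxycycline), 6 gene bodies with less H3K27ac and 2 with less H3K4me1, and KCND1 H3K4me1 turned to 0.85. At q 1e-10 or less there were 68 active, 0 bivalent, 0 Polycomb and 28 bare promoters in each treatment, 2 different states and 0 losses. Consensus regions gave 3 different states, 2.5 kb promoters 4 and 200 bp of overlap 1 promoter gain. With peaks of 2 of 3 libraries there were 349 primed elements in DMSO and 18 and 16 poised. Lists of equal length gave 116 and 127 active elements, 0 losses, 4 poised elements in DMSO and 10 bodies with more H3K4me1. Covered bases without overlap gave 22 promoter gains and 9 losses. Shares over all coding genes are not given for the counts of this paragraph.

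With the replicate block, 16 bodies had less H3K27ac (27.6%, beside 20.3% of the coding genes tested) and 14 more (24.1%, beside 13.4%) in all 3 pairs. These counts were nearer to balance than the 10 and 3 without the block. For H3K4me1, 20 had less and 18 more, and for H3K27me3, 0 had less (beside 0.436%) and 18 more (28.1%, beside 18.1%); same-numbered promoter libraries correlated over 0.1 in each pair for H3K4me2 and H3K4me3. Leaving out 1 library or number gave 0 to 3 promoter gains, 1 to 4 losses, 6 to 16 poised elements in DMSO and 6 to 13 in Doxycycline, 3 to 10 bodies with more H3K27ac, 6 to 16 with less and 6 to 12 with more H3K4me1. Groups of 2 separate more easily than groups of 3. Poised elements were 16 without DMSO replicate 2, and in Doxycycline 13 without replicate 2 and 10 without replicate 3. The other causes were not tested. How calling depth bears on weak peaks was not tested.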
